A study of Homo sapiens with 12 samples.

Results

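The long noncoding and antisense RNAs of HT-29 cells were taken as a set of 267 genes, of 26485 genes listed in the deposited tables. Members were chosen by 2 things, the form of the symbol and a measured level, and by no fold change. A gene entered by its symbol (LINC and a number, a suffix AS or IT and a number, SNHG and a number, or *NEAT1*, *MALAT1* or *GAS5*) and by a mean of at least 10 over the 4 group means. The set holds 169 antisense RNAs (AS), 74 intergenic RNAs (LINC), 17 small nucleolar RNA host genes (SNHG), 4 intronic transcripts (IT) and these 3 named genes. HT-29 cells are a line derived from a human adenocarcinoma of the colon. All cells were treated for 8 h, and each group gave 3 libraries of polyA RNA: TSZ+Nec-1s (TNFα at 10 ng/ml, zVAD at 20 μM, SM-164 at 50 nM and Nec-1s at 10 μM), TSZ (those agents without Nec-1s), TNFα (10 ng/ml alone) and DMSO. TNFα is an inflammatory cytokine, SM-164 an antagonist of IAP proteins that mimics Smac, zVAD a broad inhibitor of caspases and Nec-1s an inhibitor of the RIPK1 kinase, and TSZ induces necroptosis, a form of lytic cell death. The comparisons ask which of these RNAs changed with necroptosis, with TNFα alone and with necroptosis inhibited at RIPK1. All results come from 1 cell line at 1 time.

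Long noncoding RNAs are transcripts that are not translated into a known protein, and many stay in the nucleus. *NEAT1* is the scaffold on which paraspeckles, nuclear bodies rich in RNA-binding proteins, are built, and *MALAT1* gathers in nuclear speckles beside splicing factors. SNHG genes and *GAS5* carry small nucleolar RNAs in their introns, while the spliced exons are often removed by nonsense-mediated decay. Antisense RNAs lie opposite a coding gene or start close to its promoter on the other strand.

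A level below is a number of normalized reads, which is the reads of a gene in a library divided by the size factor of that library. The tables give group means alone, and single libraries were rebuilt from those means, since each mean is a sum of 3 whole read numbers in steps set by the size factors. All 267 RNAs were solved. The letters a, b and c name the rebuilt libraries of a group and pair nothing between groups. The estimated depth ranged from 8829773 to 12730125 reads per library. The sources do not say whether replicate libraries are separate cultures, and p-values therefore cover the spread of these libraries alone, part or all of which may be technical. Within their groups DMSO b, TNFα a and TSZ a stood apart. Chi-square per gene was 36.0 and 50.7 between DMSO b and the other DMSO libraries, against 4.63 between those, 24.0 and 24.8 for TSZ a against 2.73, and 9.83 and 6.86 for TNFα a against 4.86, while it was 2.24 to 2.70 within TSZ+Nec-1s. Across genes the deviation from the group mean followed GC content in these 3 libraries, with Spearman rank correlations of -0.79 in DMSO b, -0.59 in TNFα a and -0.74 in TSZ a, and with the opposite sign in the other libraries of their groups, from 0.21 in TNFα c to 0.77 in DMSO c. Deviations from the group mean cancel over the libraries of a group for each gene, so the opposite signs follow in part from the calculation. The counts below are also given without DMSO b, TNFα a and TSZ a. The label was checked against 11 markers of colon epithelium, of which 7 were tested and 6 were higher with TSZ than in DMSO cells. Of these *KRT20* had 3126 ± 63.6 normalized reads in TSZ+Nec-1s cells, 8493 ± 258 in TSZ, 2372 ± 3.83 in TNFα and 1404 ± 44.2 in DMSO cells (SD, n = 3 each). The homeobox gene *CDX1* was near 0 in every group, with a highest mean of 0.740. The group means of the 11 markers sum to 143163 normalized reads in DMSO cells, while rebuilt DMSO libraries held 20832 to 24024. Most of the signal therefore lies in markers whose libraries could not be rebuilt, and these were not tested. Of 6 leukocyte markers the defining *PTPRC* and *CD3E* were at 0 in all groups, while the sum of the list was 407 in TSZ+Nec-1s, 680.5 in TSZ, 357 in TNFα and 245.2 in DMSO cells. Of its 3 tested members *CD68* and *ITGAM* were higher and *CD14* lower with TSZ than in DMSO cells, and the part of these in the results was not tested either. The summed level of 6 markers of fibroblasts and endothelium was 51.0 in TSZ+Nec-1s, 341 in TSZ, 53.2 in TNFα and 128 in DMSO cells, with *COL1A1* carrying 223 ± 79.2 of it in TSZ and 71.9 ± 44.1 in DMSO cells, and the part of this in the results was not tested. Fewer cells and less RNA per cell cannot be told apart in such bulk samples.

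Names and sequence annotation differ for part of the set. In GENCODE v44 on hg38, 245 members are long noncoding RNAs and 10 are now protein-coding genes, among them *LINC00675* (now *TMEM238L*), *LINC00998* (*SMIM30*) and *FAM83H-AS1* (*IQANK1*). Reads were counted by the authors without regard to strand, so reads from an RNA and from a gene that overlaps it on the other strand cannot be told apart. An exonic base is shared with an exon of another gene in 191 members, and at least 50% of the exonic bases are shared in 22. Such overlap is that of GENCODE v44 and is given beside some of the members described. How the counting of the authors treated reads on shared exons was not tested. Of the 267 RNAs, 20 reached the mean of 10 only through their highest group (TSZ+Nec-1s for 4, TSZ for 9, TNFα for 1 and DMSO for 6), so the sizes of their changes, their p-values and any separation of groups follow in part from the filter. Of the RNAs described below these are *APCDD1L-AS1*, *CEBPA-AS1*, *CEBPB-AS1*, *KLF3-AS1*, *LINC00936*, *LINC01124*, *LINC01564*, *PSMB8-AS1* and *RBM5-AS1*. Just inside the limit stood *ZSWIM8-AS1* at a mean of 10.0, *LINC01564* at 10.3 and *CEBPB-AS1* at 10.3, and just outside it *LINC01547* at 9.88, *LINC00514* at 9.85 and *PSMD6-AS2* at 9.80.

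Most of these RNAs were scarce. The median level over the set was 39.4 normalized reads, against 320 over all 11680 genes tested, with quartiles of 19.4 and 106, and 150 members had a mean under 50. The 5 highest were *NEAT1* at 5173, *LINC00657* (now *NORAD*, a cytoplasmic RNA that binds PUMILIO proteins) at 3530.1, *LRRC75A-AS1* (now *SNHG29*) at 3126, *MALAT1* at 1889 and *SNHG1* at 1777. Per kilobase of annotated exon the order among these 5 was *LINC00657* at 654 normalized reads per kilobase, *SNHG1* at 447, *LRRC75A-AS1* at 349, *NEAT1* at 227 and *MALAT1* at 181. This order depends on the annotated exonic length, 22767 bases for *NEAT1* and 10434 for *MALAT1*, whatever the length of the forms present. The libraries hold polyA RNA, and how fully each RNA was captured was not tested. The summed level of the 267 RNAs was 37000 ± 590 normalized reads in TSZ+Nec-1s, 56688 ± 1269 in TSZ, 38246 ± 458 in TNFα and 39097 ± 584 in DMSO cells (SD, n = 3 each). *NEAT1* alone made up 5.75% ± 0.317 of that sum in TSZ+Nec-1s, 24.6% ± 0.642 in TSZ, 5.41% ± 0.635 in TNFα and 6.49% ± 0.642 in DMSO cells. With *NEAT1* left out the sums were 34875 ± 589 in TSZ+Nec-1s, 42728 ± 800 in TSZ, 36176 ± 273 in TNFα and 36558 ± 315 in DMSO cells.

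With TSZ the set moved in both directions. Against DMSO, 47 of 267 RNAs were higher and 63 lower (limma, adjusted p under 0.05), beside a background of 25.8% higher and 24.2% lower among all genes tested. That is 17.6% of the set higher and 23.6% lower, so the share lower lay near the background and the share higher under it. The median log2 fold change was -0.22 over the set and -0.02 over all genes. At least a 2-fold change was found for 27 of the 267 RNAs higher and 42 of the 267 lower, beside 11.2% and 8.22% of all genes. By that rule the share lower lay above the background. The set had lower levels than all genes (median 39.4 against 320 normalized reads), and the part of level in these shares was not tested. Among antisense RNAs 26 of 169 were higher and 44 lower, among intergenic RNAs 13 of 74 were higher and 15 lower, and among SNHG genes 5 of 17 were higher and 4 lower. None of the 4 intronic transcripts, which had group means between 14.3 and 41.9 normalized reads, passed the test in limma, and none had an unadjusted p under 0.05. Scaling matters for this balance: by total reads the median of all genes fell by 0.43 on the log2 scale, and 29 RNAs were higher and 129 lower, beside 13.99% and 48.6% of all genes. By the upper quartile that median fell by 0.19, and 39 were higher and 88 lower, beside 19.7% and 33.4%. Without the 3 libraries that stood apart 56 were higher and 62 lower, beside 32.4% and 28.8%.

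**Figure D1:**
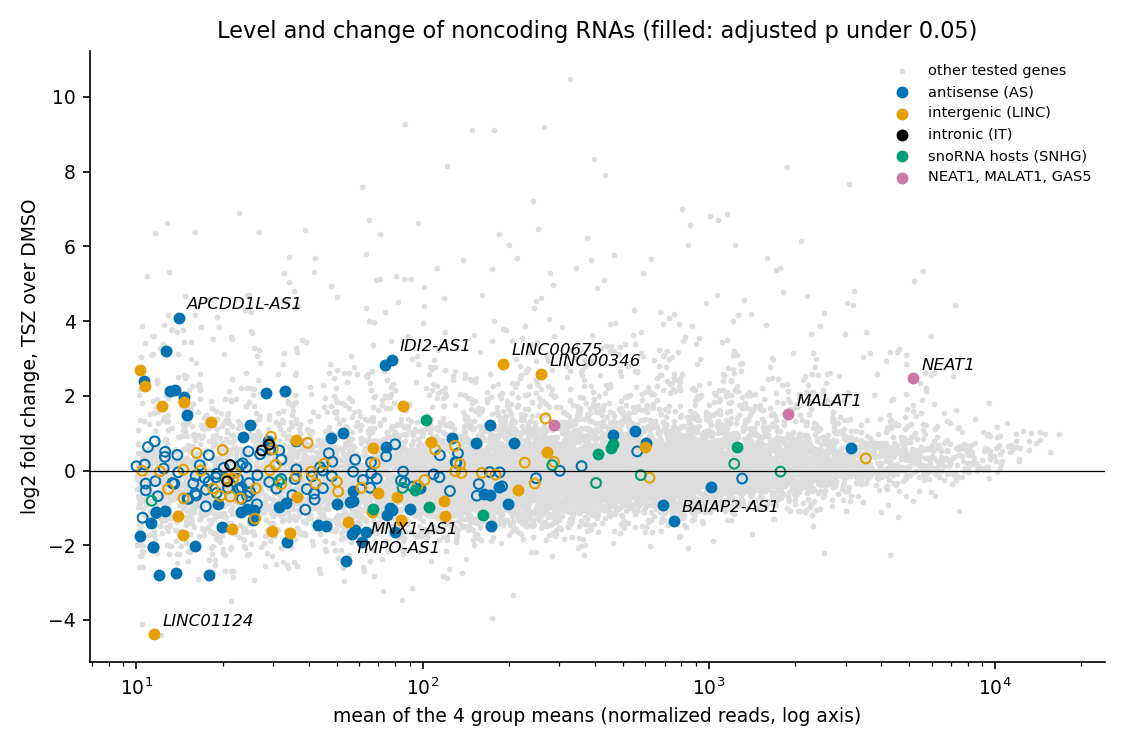
Log2 fold change (TSZ over DMSO) against mean level (normalized reads, log axis) of every tested gene. Grey points are other genes, coloured points the 267 noncoding RNAs by class, filled where the adjusted p was under 0.05; *NEAT1* and *MALAT1* stand high in both level and change, while most members have means under 50.

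Among the 9 members with a mean above 1000, *NEAT1* had the largest log2 fold change for TSZ over DMSO. *NEAT1* had 2074, 2043 and 2259 normalized reads in TSZ+Nec-1s cells, 14122, 14461 and 13296 in TSZ cells, 2290.1, 1778 and 2141 in TNFα cells and 2464, 2857 and 2295 in DMSO cells. The 3 TSZ libraries lay far above the 9 others and did not overlap them. TSZ+Nec-1s and TNFα libraries overlapped each other, and each DMSO library was above both. The log2 fold change ± SE was 2.46 ± 0.10 (adjusted p = 8.53e-10) for TSZ over DMSO, 2.76 ± 0.10 (adjusted p = 5.41e-10) for TSZ over TNFα and -2.72 ± 0.10 (adjusted p = 7.49e-10) for TSZ+Nec-1s over TSZ. For TSZ+Nec-1s over DMSO it was -0.25 ± 0.11 (adjusted p = 0.16). *NEAT1* lies at chr11:65422774-65445540, plus strand of hg38, and 2.13% of its exonic bases are shared with another gene. A short and a long form of *NEAT1* start at the same base, and the gene level values do not separate them.

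*MALAT1* was also higher with TSZ, with more spread. *MALAT1* had 1518, 1673 and 1459 normalized reads in TSZ+Nec-1s cells, 3935, 3992 and 2788 in TSZ cells, 1376, 872 and 1091 in TNFα cells and 1131, 1953 and 876 in DMSO cells. The TSZ libraries lay above all others, whereas DMSO b reached 1953, above every TNFα and TSZ+Nec-1s library. It had a log2 fold change ± SE of 1.5 ± 0.24 (adjusted p = 2.22e-04) for TSZ over DMSO and -1.19 ± 0.24 (adjusted p = 0.0016) for TSZ+Nec-1s over TSZ. For TSZ+Nec-1s over DMSO it was 0.31 ± 0.25 (adjusted p = 0.46), and 0.63 (adjusted p = 1.25e-04) without the 3 libraries that stood apart, of which DMSO b is one. The gene lies at chr11:65497640-65508073, plus strand, on the same strand as *NEAT1*, and 83.7% of its exonic bases are shared with another annotated gene. The nearest coding gene to *NEAT1*, *FRMD8*, had a log2 fold change of -0.15 for TSZ over DMSO (adjusted p = 0.42).

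**Figure D2:**
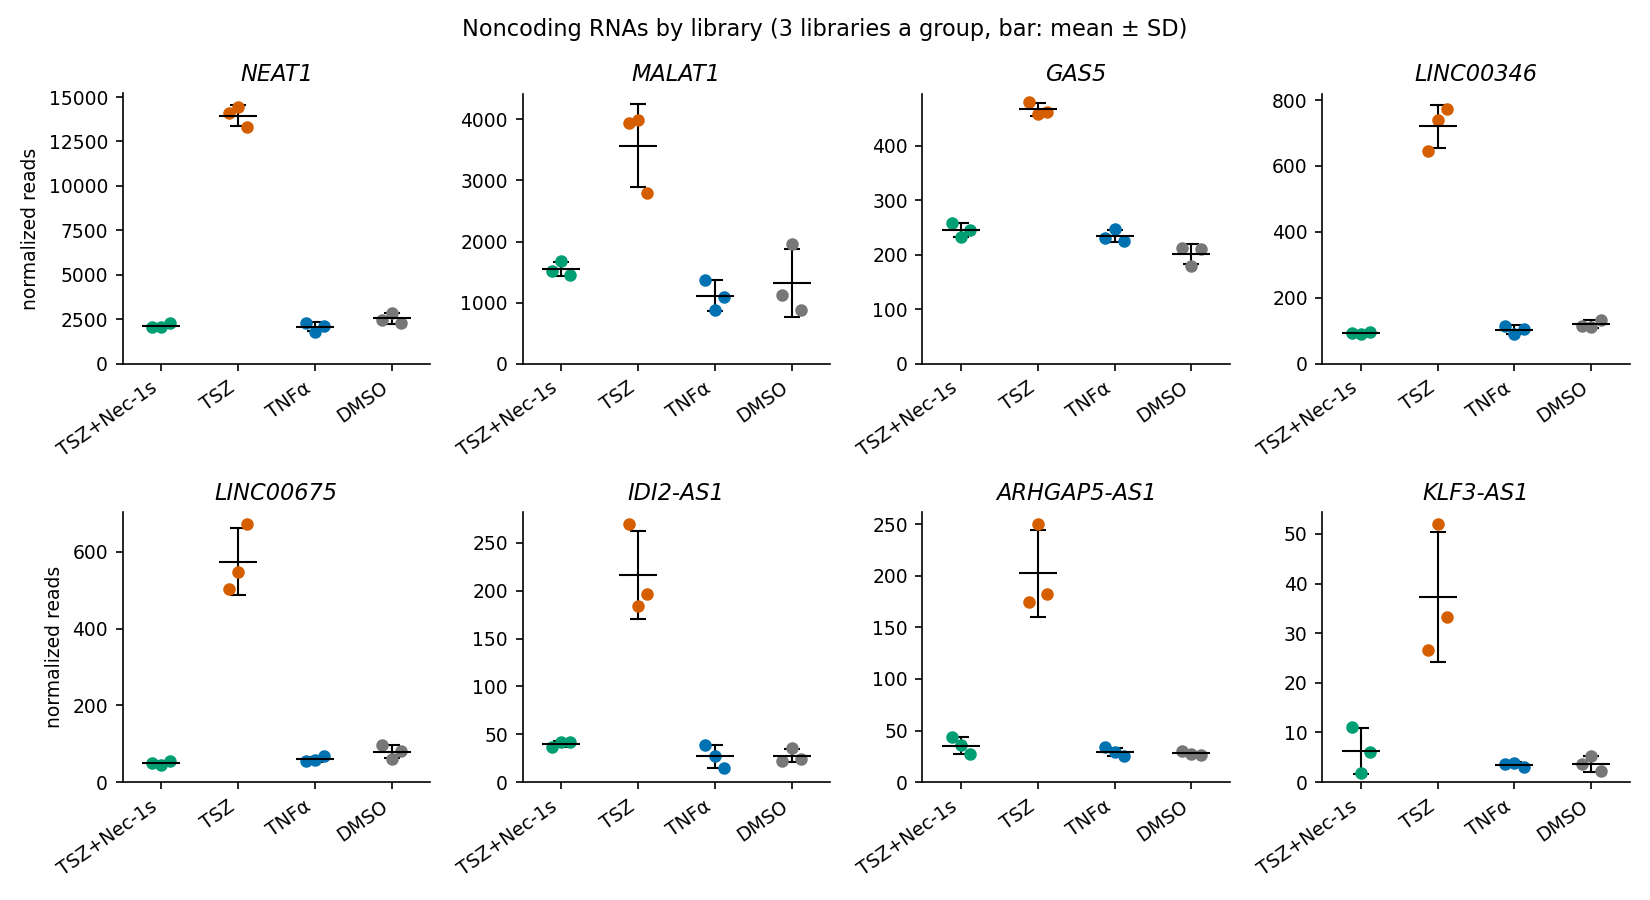
Normalized reads of 8 noncoding RNAs in each library, by group; points are libraries and bars the mean ± SD of 3. In each panel the 3 TSZ libraries lie above the 9 libraries of the other groups, from *KLF3-AS1* at a TSZ mean of 37.3 to *NEAT1* at 13959.7. *KLF3-AS1* passed the filter only through TSZ, so its separation follows in part from the filter.

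Counts in the following lists stand beside 25.8% higher and 24.2% lower among all genes for TSZ over DMSO. Of 19 paraspeckle proteins 2 were higher and 4 lower in TSZ than in DMSO cells, with a median log2 fold change of -0.03. *HNRNPA1*, an RNA-binding protein of the hnRNP family, was higher (0.74, adjusted p = 9.83e-05), while *CIRBP*, a cold-inducible RNA-binding protein, was lower (-1.01, adjusted p = 9.40e-05), as was *TAF15* (-0.78, adjusted p = 6.28e-06), an RNA-binding protein. Of 15 SR proteins and speckle components, which act in splicing, none was higher and 8 were lower in TSZ than in DMSO cells, with a median of -0.28. The largest falls were *SRSF7* with 1051 ± 88.6 normalized reads in TSZ and 2091 ± 133 in DMSO cells (log2 fold change -0.99, adjusted p = 1.22e-06), *SRSF10* (-0.75, adjusted p = 0.015) and *SRSF1* (-0.56, adjusted p = 0.013). With TSZ+Nec-1s against TSZ 7 of the 15 were higher and none lower, beside 19.8% and 22.4% of all genes. Of 20 tested subunits and adaptors of the nuclear exosome, which degrades nuclear RNAs, 2 were higher and 3 lower in TSZ than in DMSO cells, with *PABPN1* at 1.05 (adjusted p = 0.001), *RBM7* at 1.04 (adjusted p = 0.011) and *EXOSC2* at -0.99 (adjusted p = 8.77e-06).

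*LINC00346* is an intergenic RNA now called *PRECSIT*. *LINC00346* had 94.1, 90.3 and 95.6 normalized reads in TSZ+Nec-1s cells, 647, 740.4 and 772 in TSZ cells, 114, 88.5 and 106 in TNFα cells and 115, 112 and 133 in DMSO cells. The TSZ libraries were all above the highest library of any other group, 133 in DMSO c. The log2 fold change ± SE was 2.58 ± 0.13 (adjusted p = 3.98e-09) for TSZ over DMSO and -2.94 ± 0.13 (adjusted p = 2.74e-09) for TSZ+Nec-1s over TSZ. No exonic base of it is shared with another gene. The nearest coding gene, *ANKRD10* on the same strand, lies 8210 bases away and had 874 ± 27.5 normalized reads in TSZ+Nec-1s, 3516 ± 114 in TSZ, 870.4 ± 51.8 in TNFα and 940.2 ± 18.2 in DMSO cells, with a log2 fold change of 1.90 for TSZ over DMSO (adjusted p = 7.59e-10). The promoter of *LINC00346* is shown because it holds the AP-1 motif TGANTCA, the site of FOS and JUN dimers, at 98 and 42 bases before the start. It is RefSeq sequence of chr13:110870259-110870558, minus strand, in GRCh38.p14, from 250 bases before to 50 after the start, with the motif in capitals.
LINC00346 promoter: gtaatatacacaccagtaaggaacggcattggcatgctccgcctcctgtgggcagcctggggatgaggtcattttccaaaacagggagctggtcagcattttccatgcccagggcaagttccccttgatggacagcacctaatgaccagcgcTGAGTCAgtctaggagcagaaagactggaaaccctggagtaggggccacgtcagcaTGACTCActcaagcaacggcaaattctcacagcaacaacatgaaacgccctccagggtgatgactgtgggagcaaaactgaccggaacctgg

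*LINC00675* carries a noncoding name but is annotated as the coding gene *TMEM238L*. *LINC00675* had 49.8, 44.3 and 55.3 normalized reads in TSZ+Nec-1s cells, 503, 549 and 672 in TSZ cells, 54.2, 56.8 and 67.1 in TNFα cells and 95.4, 61.0 and 80.2 in DMSO cells. The TSZ libraries did not overlap any others. Its log2 fold change ± SE was 2.86 ± 0.18 (adjusted p = 3.38e-08) for TSZ over DMSO and -3.51 ± 0.19 (adjusted p = 1.61e-08) for TSZ+Nec-1s over TSZ, and 75.5% of its exonic bases are shared with another annotated gene. Its nearest coding neighbour *PIRT* had a highest group mean of 0.793 normalized reads and was not tested. Its promoter (chr17:10804050-10804349, minus strand, GRCh38.p14, RefSeq) is shown for comparison with that of *LINC00346*: it holds no AP-1 motif of these letters, but a CCAAT box (CCAAT) and an E-box (CACGTG), both in capitals, at 121 and 15 bases before the start.
LINC00675 promoter: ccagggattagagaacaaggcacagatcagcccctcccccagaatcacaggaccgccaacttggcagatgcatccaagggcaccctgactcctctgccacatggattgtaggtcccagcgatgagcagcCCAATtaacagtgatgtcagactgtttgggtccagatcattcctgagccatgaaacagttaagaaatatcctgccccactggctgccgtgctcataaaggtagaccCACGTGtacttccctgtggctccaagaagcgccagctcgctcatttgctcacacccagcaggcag

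The following 4 antisense RNAs rose with TSZ beside a coding gene that they overlap or start next to. *IDI2-AS1* had 36.4, 41.7 and 42.3 normalized reads in TSZ+Nec-1s cells, 269.6, 184 and 196 in TSZ cells, 39.2, 26.9 and 15 in TNFα cells and 22.5, 35.7 and 24.6 in DMSO cells. *IDI2-AS1* had a log2 fold change ± SE of 2.97 ± 0.29 (adjusted p = 2.61e-06) for TSZ over DMSO and -2.41 ± 0.25 (adjusted p = 8.23e-06) for TSZ+Nec-1s over TSZ. *IDI2*, for which it is named, moved the other way (-1.40, adjusted p = 8.24e-04 for TSZ over DMSO). However, 53.1% of its exonic bases lie in the body of *IDI1* on the other strand and 18% on exons of it. *IDI1*, the isopentenyl-diphosphate isomerase of sterol synthesis, was higher with TSZ (2.04, adjusted p = 2.55e-07), and reads of the pair cannot be told apart where they overlap. *ARHGAP5-AS1* had 43.5, 35.6 and 27.2 normalized reads in TSZ+Nec-1s cells, 174, 251 and 182 in TSZ cells, 33.6, 28.9 and 25 in TNFα cells and 29.7, 27.3 and 26.7 in DMSO cells. No TSZ library of *ARHGAP5-AS1* overlapped another group, and the log2 fold change ± SE was 2.81 ± 0.23 (adjusted p = 5.65e-07) for TSZ over DMSO and -2.49 ± 0.21 (adjusted p = 1.27e-06) for TSZ+Nec-1s over TSZ. *ARHGAP5*, a GTPase-activating protein whose start lies 679 bases from that of the antisense RNA, had 2429.5, 1042 and 1028 normalized reads in TSZ cells, against 408, 1179 and 278 in DMSO cells, with a log2 fold change ± SE of 1.43 ± 0.43 (adjusted p = 0.014). These groups overlapped, through DMSO b.

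*KLF3-AS1* had 11.1, 1.74 and 6.04 normalized reads in TSZ+Nec-1s cells, 26.6, 51.9 and 33.3 in TSZ cells, 3.74, 3.85 and 3.0 in TNFα cells and 3.60, 5.26 and 2.14 in DMSO cells. *KLF3-AS1*, which passed the filter only through TSZ, had low counts, with a log2 fold change ± SE of 3.19 ± 0.54 (adjusted p = 2.89e-04) for TSZ over DMSO. *KLF3*, a zinc finger repressor that starts 729 bases away on the other strand, was higher too (1.56, adjusted p = 4.52e-06). *HLA-F-AS1* had 58.8, 93.7 and 64.3 normalized reads in TSZ cells, against 17.1, 16.8 and 13.9 in DMSO cells, with a log2 fold change ± SE of 2.12 ± 0.30 (adjusted p = 7.54e-05), and 75.6% of its exonic bases lie in the body of *HLA-F*, a nonclassical MHC class I gene at 1.93 (adjusted p = 2.03e-04). The promoter of *ARHGAP5-AS1* (chr14:32076650-32076949, minus strand, GRCh38.p14, RefSeq) is shown as that of an RNA that starts inside *ARHGAP5* on the other strand. Of its exonic bases 36.8% lie in the body of that gene. Reversed CCAAT boxes (ATTGG, in capitals) begin 34 bases before and 9 bases after the start of the RNA.
ARHGAP5-AS1 promoter: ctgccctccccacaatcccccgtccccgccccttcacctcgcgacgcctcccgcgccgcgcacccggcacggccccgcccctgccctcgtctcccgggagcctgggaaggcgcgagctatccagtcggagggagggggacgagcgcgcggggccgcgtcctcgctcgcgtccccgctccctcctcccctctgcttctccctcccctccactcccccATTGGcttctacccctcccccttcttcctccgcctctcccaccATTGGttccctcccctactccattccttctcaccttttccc

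Several other large rises rested on few reads. *APCDD1L-AS1* had 32.2, 29.3 and 38.1 normalized reads in TSZ cells, against 0, 3.15 and 4.28 in DMSO cells, with a log2 fold change ± SE of 4.09 ± 0.62 (adjusted p = 1.34e-04), and its coding neighbour *APCDD1L* had a TSZ mean of 8.71 and no reads in DMSO cells, too few to be tested. *LINC01564* had 20.0, 22.6 and 28.6 normalized reads in TSZ cells, against 3.60, 4.20 and 2.14 in DMSO cells, at 2.68 ± 0.60 (adjusted p = 0.0025). It starts 499 bases from *GCLC*, the catalytic subunit of the enzyme that limits glutathione synthesis, which had a log2 fold change of 2.58 (adjusted p = 5.28e-09). *RBM5-AS1* had 24.4, 32.7 and 21.4 normalized reads in TSZ cells, against 9.0, 7.36 and 1.07 in DMSO cells, at 2.39 ± 0.51 (adjusted p = 0.0017). It lies whole within *RBM5*, a splicing regulator at 0.17 (adjusted p = 0.23), with 72.7% of its exonic bases on *RBM5* exons. *LINC00936* had 25.5, 20.3 and 26.2 normalized reads in TSZ cells, against 4.50, 9.46 and 2.14 in DMSO cells, at 2.26 ± 0.40 (adjusted p = 4.09e-04). It starts 407 bases from *ATP2B1*, a plasma membrane calcium pump at 1.0 (adjusted p = 0.0072). All 4 RNAs passed the filter only through TSZ, so their values are a description.

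Of the RNAs that fell with TSZ, 4 are given here with the coding gene beside them. *LINC01124* had 2.22, 0 and 0 normalized reads in TSZ cells, against 24.3, 22.1 and 13.9 in DMSO cells. The fitted log2 fold change ± SE was -4.37 ± 0.71 (adjusted p = 2.18e-04), but TSZ cells had 2 reads in all, so the ratio is better given as 0.0368 with a 95% counting interval of 0.00436 to 0.139 (Clopper-Pearson). Its coding neighbour *SP5*, an Sp family factor that starts 770 bases away, had 12.9 ± 9.54 normalized reads in TSZ and 47.3 ± 6.37 in DMSO cells (-2.05, adjusted p = 7.22e-04). *CEBPA-AS1* had 4.44, 2.26 and 1.19 normalized reads in TSZ cells, against 19.8, 16.8 and 23.5 in DMSO cells, at -2.79 ± 0.53 (adjusted p = 7.83e-04), beside *CEBPA*, a factor of epithelial and myeloid differentiation, at -0.72 (adjusted p = 0.0064). *MNX1-AS1* had 26.6, 39.5 and 14.3 normalized reads in TSZ cells, against 96.3, 93.5 and 97.3 in DMSO cells, at -1.92 ± 0.30 (adjusted p = 1.86e-04), with the homeobox gene *MNX1* at -0.72 (adjusted p = 0.0073). *ZNF436-AS1* had 4.44, 2.26 and 7.14 normalized reads in TSZ cells, against 34.2, 27.3 and 36.3 in DMSO cells, at -2.79 ± 0.37 (adjusted p = 4.22e-05), whereas the zinc finger gene *ZNF436* was at -0.06 (adjusted p = 0.79). No TSZ library of *MNX1-AS1* or *ZNF436-AS1* overlapped a DMSO library. *LINC01124* and *CEBPA-AS1* passed the filter only through their highest group, so their values are a description.

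The promoter of *CEBPA-AS1*, now *CEBPA-DT* (chr19:33302571-33302870, plus strand, GRCh38.p14, RefSeq), is shown as that of a lower RNA with a divergent start, 323 bases from that of *CEBPA*. An E-box (CACGTG, in capitals) begins 22 bases before its start.
CEBPA-AS1 promoter: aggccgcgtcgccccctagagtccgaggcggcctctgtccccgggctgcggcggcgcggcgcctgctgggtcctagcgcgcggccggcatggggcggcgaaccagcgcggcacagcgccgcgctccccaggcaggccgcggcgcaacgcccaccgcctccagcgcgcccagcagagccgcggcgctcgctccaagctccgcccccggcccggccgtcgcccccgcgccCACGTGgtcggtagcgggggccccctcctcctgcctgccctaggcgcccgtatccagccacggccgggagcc

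Motif shares are given as counts with no test. RefSeq promoters of 300 bases were matched to 210 of the 267 RNAs and searched on both strands, with a palindromic match counted once. Promoters of chromosome 8 were left out, of members and of all genes alike. The 210 RNAs have 253 promoters, and an RNA counts if any of them matches, while shares of all promoters are per promoter. These 2 kinds of share are therefore not in like units. AP-1 and CRE begin and end with the same 3 letters, and CRE and the E-box share ACGT. AP-1 (TGANTCA) was in 14 of 210 members and in 7.71% of all 35116 promoters, and in 3 of 36 RNAs higher with TSZ than with DMSO, 3 of 50 lower ones and 8 of 124 not called. The 3 higher ones were *LINC00346*, *LINC00152* (now *CYTOR*) and *LINC01002*. The CRE motif (TGACGTCA) was in 7 members and 1.85% of all promoters, the E-box in 22 members and 7.26%, and the CCAAT box in 80 members and 34.6%. A form of the NF-κB motif (GGGA and CC with any 4 bases between) was in 67 members and 25.6% of all promoters, among them 9 of 36 higher RNAs and 18 of 50 lower ones. The ATF4 and C/EBP element (TGATGNAA) was in 4 members and 3.62% of all promoters, the CArG box in 2 and 1.29%, and the sterol element (TCACNCCAC) in 0 and 1.13%. A match is a stretch of letters and not a measured site.

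The snoRNA host genes moved in both directions with TSZ. Of 17 SNHG genes 29.4% were higher and 23.5% lower than with DMSO, near the 25.8% and 24.2% of all genes. With TSZ against DMSO *SNHG5*, *SNHG6*, *SNHG16*, *SNHG17* and *SNHG8* were higher, as was *GAS5*, and *SNHG4*, *SNHG11*, *SNHG20* and *SNHG19* were lower, with 8 not called. *GAS5* had 258, 233 and 245 normalized reads in TSZ+Nec-1s cells, 480.4, 458 and 462 in TSZ cells, 229.9, 246 and 225 in TNFα cells and 212, 179.7 and 209 in DMSO cells. *GAS5* had a log2 fold change ± SE of 1.22 ± 0.11 (adjusted p = 1.02e-06) for TSZ over DMSO and -0.93 ± 0.10 (adjusted p = 1.38e-05) for TSZ+Nec-1s over TSZ, and no TSZ library overlapped another group. *SNHG5* had 79.9, 83.3 and 83.5 normalized reads in TSZ+Nec-1s cells, 154, 192 and 175 in TSZ cells, 75.7, 103 and 81.1 in TNFα cells and 77.4, 51.5 and 73.8 in DMSO cells. At 1.37 ± 0.18 (adjusted p = 4.12e-05) for TSZ over DMSO and -1.07 ± 0.17 (adjusted p = 2.86e-04) for TSZ+Nec-1s over TSZ, *SNHG5* changed most among the higher hosts. The largest called fall was that of *SNHG4*. *SNHG4* had 137, 129 and 154 normalized reads in TSZ+Nec-1s cells, 75.4, 104 and 102 in TSZ cells, 203, 196 and 200.2 in TNFα cells and 214, 245 and 187 in DMSO cells. Its log2 fold change ± SE was -1.20 ± 0.16 (adjusted p = 4.45e-05) for TSZ over DMSO, and it lies whole within *MATR3*, a nuclear matrix protein gene on the same strand, which had 0.09 (adjusted p = 0.76).

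The other changes among the hosts were smaller. *SNHG6* had 610.0 ± 104 normalized reads in TSZ and 368 ± 27.1 in DMSO cells (log2 fold change 0.72, adjusted p = 5.24e-04), *SNHG16* 1596 ± 86.1 in TSZ and 1034 ± 86.2 in DMSO (0.63, adjusted p = 1.20e-04), and *SNHG17* 598 ± 80.2 in TSZ and 396 ± 59.7 in DMSO (0.59, adjusted p = 0.0033). Scaled to total reads, *SNHG6*, *SNHG17* and *SNHG8* were no longer called for TSZ over DMSO, nor was *LRRC75A-AS1* (0.62, adjusted p = 7.52e-04 as scaled by size factors), the host now named *SNHG29*. *SNHG11* had 39.7 ± 6.95 in TSZ and 80.7 ± 14.8 in DMSO (-1.02, adjusted p = 0.0011), and *SNHG20* 70.3 ± 25.9 in TSZ and 133 ± 33.1 in DMSO (-0.97, adjusted p = 0.0049). *SNHG8* (0.43, adjusted p = 0.033) lost its call without TSZ b (0.13), TSZ c (0.069) or DMSO b (0.1), and *SNHG19* (-0.51, adjusted p = 0.04) without TSZ+Nec-1s a (0.0549), TSZ+Nec-1s b (0.05), TSZ a (0.11), TSZ b (0.12), TNFα a (0.0506), TNFα c (0.0521), DMSO a (0.08) or DMSO c (0.14), each adjusted p in brackets. *SNHG1*, the most abundant SNHG member, had 1774, 1793 and 1815 normalized reads in TSZ+Nec-1s, 1823, 1545 and 1716 in TSZ, 2139, 1842 and 1685 in TNFα and 1836, 1848 and 1509 in DMSO cells, and its groups overlapped in all 6 comparisons. Its neighbour *SLC3A2*, an amino acid transporter subunit that starts 51 bases away on the other strand, was higher with TSZ (1.01, adjusted p = 2.14e-05). Of the others, *SNHG3*, *SNHG7*, *SNHG9*, *SNHG10*, *SNHG12*, *SNHG15* and *SNHG21* lay between -0.81 and 0.18 for TSZ over DMSO and did not pass the test. Without the 3 libraries that stood apart *SNHG9* was at -1.53 (adjusted p = 0.022), *SNHG15* at -0.49 (adjusted p = 9.05e-04) and *SNHG3* at 0.22 (adjusted p = 0.017), each then past the test, and *SNHG4* at -0.96 (adjusted p = 2.41e-05).

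**Figure D3:**
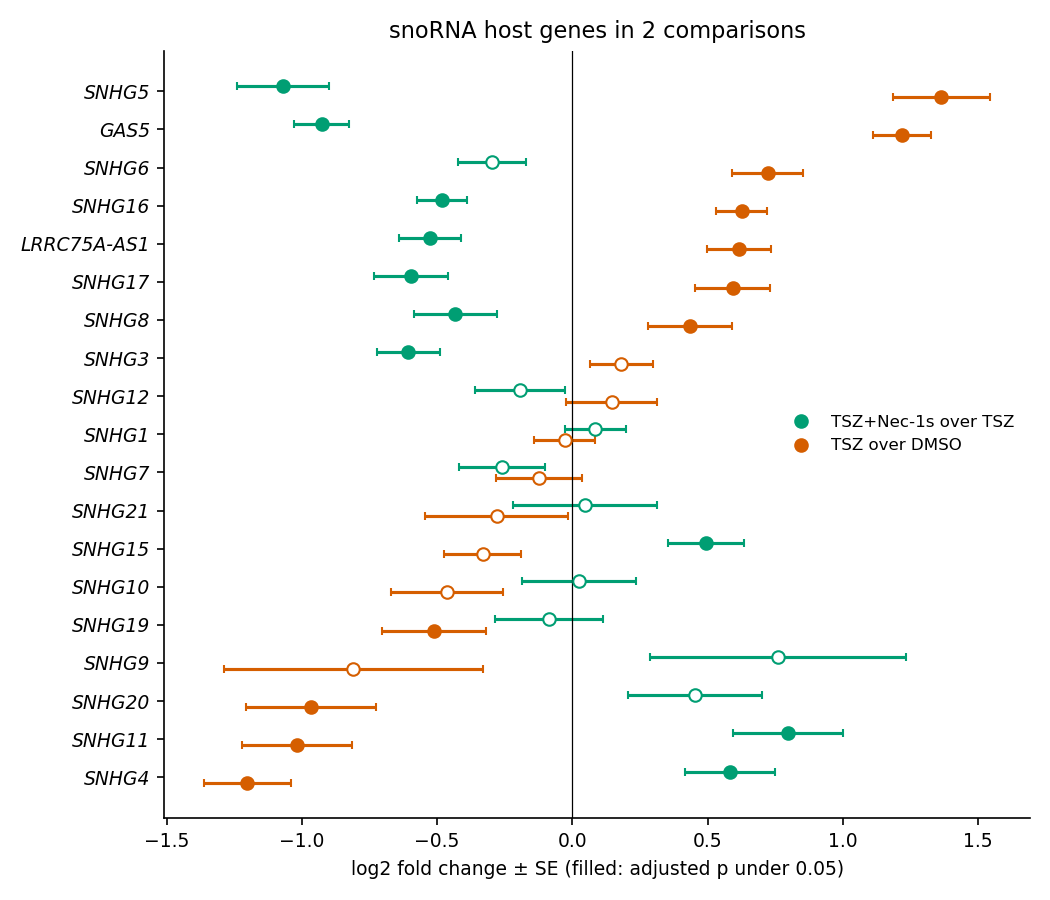
Log2 fold change ± SE (limma) of 19 snoRNA host genes for TSZ+Nec-1s over TSZ (green) and TSZ over DMSO (orange), filled where the adjusted p was under 0.05. Hosts run from *SNHG5* at 1.37 to *SNHG4* at -1.20 for TSZ over DMSO; both comparisons share the TSZ libraries, so opposite signs are not independent.

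Many snoRNA hosts are known to begin with a terminal oligopyrimidine tract, a C followed by a run of C and T that places a transcript under growth-dependent control of translation. A run of at least 5 such bases beginning with C within 5 bases of the annotated start was found in 9 of 16 matched genes among SNHG members, *GAS5* and *MALAT1*, in 43 of 194 other matched members and in 21.1% of all promoters. Among the 9 is *MALAT1*, which is not a snoRNA host. A gene counts if any of its promoters has a run, while the share of all promoters is per promoter. This search was set after starts had been looked at and has no test. Among the matched SNHG genes, *SNHG5*, *SNHG8*, *SNHG16* and *SNHG17*, which were higher with TSZ, each had a run. So did *SNHG4* and *SNHG19*, which were lower. Of those not called, *SNHG7* and *SNHG12* had a run, and *SNHG1*, *SNHG3*, *SNHG10* and *SNHG21* had none. No run was found at the RefSeq start of *GAS5*, which was higher with TSZ, nor at those of *SNHG11* and *SNHG20*, which were lower. For these genes and *SNHG12* the RefSeq window does not hold the GENCODE start, which was not searched. The *GAS5* window is chr1:173868996-173869295, minus strand, while its GENCODE start is at 173868882. A run at the GENCODE starts is therefore neither shown nor excluded. The sequences below show 10 bases before to 30 after the RefSeq start (GRCh38.p14), with the run in capitals.
SNHG4 start: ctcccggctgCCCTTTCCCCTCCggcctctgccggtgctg
SNHG5 start: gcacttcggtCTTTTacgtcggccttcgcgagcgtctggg
SNHG12 start: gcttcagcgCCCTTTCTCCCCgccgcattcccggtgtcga
SNHG16 start: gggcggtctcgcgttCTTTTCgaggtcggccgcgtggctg
SNHG19 start: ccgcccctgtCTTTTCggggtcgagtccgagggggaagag
GAS5 start: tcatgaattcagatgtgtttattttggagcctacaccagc
SNHG11 start: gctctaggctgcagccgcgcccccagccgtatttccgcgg
SNHG20 start: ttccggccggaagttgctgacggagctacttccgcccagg

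Genes of snoRNP assembly and of nonsense-mediated decay were tested beside these hosts. Of 16 tested snoRNP proteins, which assemble small nucleolar RNAs, 2 were higher and 5 lower in TSZ than in DMSO cells (median log2 fold change -0.16, beside 25.8% and 24.2% of all genes), with *DKC1*, the pseudouridine synthase, at -0.67 (adjusted p = 6.61e-06), *NOP56*, a box C/D protein, at -0.67 (adjusted p = 3.12e-04) and *ZNHIT6*, an assembly factor, at -1.01 (adjusted p = 1.31e-04). Of 16 tested factors of nonsense-mediated decay 2 were higher and 6 lower (median -0.16), with the kinase *SMG1* at 0.77 (adjusted p = 0.014) and the UPF1 partners *UPF3A* at -0.72 (adjusted p = 1.48e-04) and *UPF3B* at -0.72 (adjusted p = 0.0012). With TSZ+Nec-1s against TSZ 6 of the snoRNP proteins were higher and 1 lower, and 5 of the decay factors were higher and 1 lower, beside 19.8% and 22.4% of all genes.

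The gene an RNA is named for was tested for 145 antisense and intronic RNAs. With TSZ against DMSO 56 of these RNAs and 85 of the named genes were called, beside 50.0% of all genes in either direction, and both were called in 35 pairs. Of these, 26 pairs moved in the same direction and 9 in opposite directions. The antisense RNA alone was called in 21 pairs, the coding gene alone in 50 and neither in 39. The widest opposite pair was *CEBPB-AS1* with *CEBPB*, a stress-responsive transcription factor. *CEBPB-AS1* had 3.33, 2.26 and 3.57 normalized reads in TSZ cells, against 10.8, 9.46 and 15 in DMSO cells, while *CEBPB* had 2353, 3995 and 2893 in TSZ and 289.9, 219 and 304 in DMSO cells. The log2 fold change ± SE was -1.75 ± 0.49 (adjusted p = 0.0096) for the antisense RNA and 3.48 ± 0.20 (adjusted p = 2.06e-08) for *CEBPB*. *MAFG-AS1* (-1.69, adjusted p = 7.82e-04) and *MAFG* (1.82, adjusted p = 7.86e-09), a small MAF factor of the antioxidant response, were next. The other opposite pairs were those of *IDI2-AS1*, *EPB41L4A-AS1*, *FAM83H-AS1*, *MAN1B1-AS1*, *MMP24-AS1*, *NOP14-AS1* and *SP2-AS1*. *MAFG-AS1* and these pairs were named after their values were seen, as members of a count. *CEBPB-AS1* passed the filter only through its highest group, so its values are a description.

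**Figure D4:**
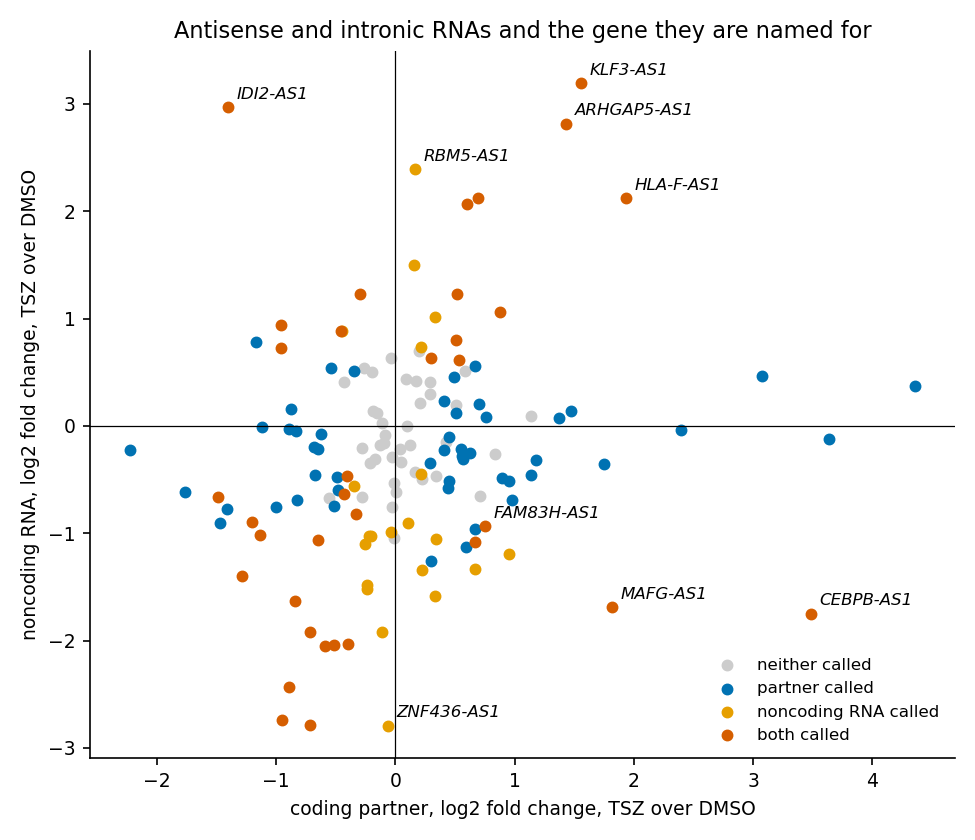
Log2 fold change (TSZ over DMSO) of 145 antisense and intronic RNAs (vertical axis) against that of the gene each is named for (horizontal axis); 1 point a pair, coloured by which of the pair had an adjusted p under 0.05. *CEBPB-AS1* and *MAFG-AS1* lie at the lower right and *IDI2-AS1* at the upper left, opposite to their named genes, and the 26 pairs called in the same direction lie at the upper right and lower left.

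Pairs were also taken by position. Their counts stand beside 50.0% of all genes called for TSZ over DMSO, 25.8% higher and 24.2% lower. Where at least 50% of the exonic bases of an RNA lie in the body of a coding gene on the other strand and that gene was tested (57 pairs), 15 pairs were called in the same direction and 3 in opposite directions with TSZ against DMSO. The RNA was called in 25 of these 57 pairs and the coding gene in 34. In such pairs reads from either strand may be counted for the other gene, which was not tested. Where the RNA starts within 1000 bases of a coding gene on the other strand (96 pairs), 16 were called in the same direction and 3 in opposite directions. The RNA alone was called in 22 and the coding gene alone in 31. In all, the RNA was called in 41 of the 96 pairs and the coding gene in 50.

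Measured against TNFα instead of DMSO, 42 RNAs were higher with TSZ and 58 lower, beside 22.5% and 21.7% of all genes. At least a 2-fold change was found in 22 higher and 30 lower RNAs, beside 8.96% and 5.89%. The median log2 fold change was -0.15 over the set and 0.01 over all genes. *LINC00675* led at 3.26 ± 0.19 (adjusted p = 2.27e-08), followed by *KLF3-AS1* at 3.19 ± 0.53 (adjusted p = 3.38e-04), *IDI2-AS1* at 3.05 ± 0.29 (adjusted p = 3.11e-06) and *LINC00346* at 2.80 ± 0.13 (adjusted p = 3.55e-09). *LINC01124* had the largest fitted fall (-3.98), with a counting ratio of 0.0490 (95% interval 0.00576 to 0.187), and *CEBPA-AS1* followed at -2.36 ± 0.54 (adjusted p = 0.0034). Since *KLF3-AS1*, *LINC01124* and *CEBPA-AS1* passed the filter only through their highest group, their values are a description. Without the 3 libraries that stood apart 54 RNAs were higher and 56 lower, beside 30.1% and 25.8% of all genes.

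With Nec-1s added to TSZ, 46 RNAs were higher than with TSZ alone and 51 lower, beside 19.8% and 22.4% of all genes. A change of at least 2-fold was seen in 19 higher and 27 lower RNAs, beside 5.33% and 7.5%. The median log2 fold change was 0.02 over the set and 0.02 over all genes. The largest falls were those of *LINC00675*, *LINC00346*, *KLF3-AS1*, *NEAT1* and *ARHGAP5-AS1*, in this order. That of *KLF3-AS1* was -2.72 ± 0.49 (adjusted p = 6.83e-04). *LINC01124* was higher, at a counting ratio of 13.6 (95% interval 3.49 to 117). *CEBPB-AS1* had 15.8, 20.0 and 10.1 normalized reads in TSZ+Nec-1s cells, against 3.33, 2.26 and 3.57 in TSZ cells, at 2.11 ± 0.47 (adjusted p = 0.0034). *HLA-F-AS1* had 22.1, 13.0 and 13.1 in TSZ+Nec-1s and 58.8, 93.7 and 64.3 in TSZ cells, at -2.14 ± 0.29 (adjusted p = 9.17e-05). *RBM5-AS1* was at -2.14 ± 0.48 (adjusted p = 0.0031). *KLF3-AS1*, *LINC01124*, *CEBPB-AS1* and *RBM5-AS1* passed the filter only through their highest group, so their values are a description. Scaled to total reads 87 were higher and 29 lower, beside 42.3% and 11.6% of all genes, and without the 3 libraries that stood apart 55 were higher and 63 lower, beside 31.1% and 31.8%.

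With TNFα alone 1 RNA, *LINC00941*, was called higher than in DMSO cells, beside 3.07% higher, 1.08% lower and 4.14% in either direction among all genes. None changed 2-fold, beside 1.4% higher and 0.351% lower. No RNA was called lower by limma, and 28 of the 267 had an unadjusted p under 0.05 in either direction. *LINC00941* had 285, 322 and 345 normalized reads in TSZ+Nec-1s cells, 297, 223 and 274 in TSZ cells, 321, 306 and 311 in TNFα cells and 197, 202 and 166 in DMSO cells. No TNFα library overlapped a DMSO library. The log2 fold change ± SE was 0.73 ± 0.14 (adjusted p = 0.0068) for TNFα over DMSO and 0.75 ± 0.14 (adjusted p = 0.0026) for TSZ+Nec-1s over DMSO, against 0.48 ± 0.14 (adjusted p = 0.012) for TSZ over DMSO, a call that was lost when scaled to total reads (adjusted p = 0.68) or to the upper quartile (0.083), or when only the 2 groups compared were fitted (0.064). In GENCODE v44 all exonic bases of *LINC00941* (100%) are shared with exons of another gene, and whether its reads come from it alone was not tested. *LINC00941* lies whole within *CAPRIN2* on the other strand, with 0% on *CAPRIN2* exons. *CAPRIN2*, an RNA-binding protein, had 1045 ± 50.1 normalized reads in TSZ+Nec-1s, 2221 ± 30.7 in TSZ, 856 ± 35.9 in TNFα and 516 ± 40.9 in DMSO cells. Without DMSO c 2 RNAs were higher, without the 3 libraries that stood apart 3 were higher and 4 lower, beside 7.02% and 4.04% of all genes, and *LINC00941* was then at 0.76 (adjusted p = 4.51e-04).

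TSZ+Nec-1s cells still differed from DMSO cells in 6 RNAs that were higher and 13 that were lower, beside 7.1% and 5.77% of all genes. Those past 2-fold were 2 higher and 4 lower, beside 3.02% and 1.12%. *PSMB8-AS1* had 20.6, 29.5 and 22.1 normalized reads in TSZ+Nec-1s cells, against 4.50, 4.20 and 1.07 in DMSO cells, at 2.83 ± 0.61 (adjusted p = 0.0081). Beside it *PSMB8*, an immunoproteasome subunit, was at 1.30 (adjusted p = 3.26e-04) and *TAP1*, the antigen peptide transporter, at 3.18 (adjusted p = 5.06e-08). *PSMB8-AS1* lies almost whole within *PSMB9* on the same strand and shares 54.0% of its exonic bases with other genes. *LINC01106* had 23.7, 25.2 and 26.2 normalized reads in TSZ+Nec-1s cells, against 61.2, 46.2 and 52.4 in DMSO cells, at -1.08 ± 0.19 (adjusted p = 0.0024), and *LINC01004* had 73.5, 60.8 and 67.4 normalized reads in TSZ+Nec-1s cells, against 104, 153 and 119.7 in DMSO cells, at -0.88 ± 0.18 (adjusted p = 0.0053). *LINC01004* lies within *KMT2E*, a histone methyltransferase family gene at -0.10 (adjusted p = 0.72). These 2 RNAs kept their calls without any 1 library. So did *PSMB8-AS1*, but it passed the filter only through its highest group, so its values are a description.

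Other calls of TSZ+Nec-1s over DMSO were lost without single libraries, given here with the adjusted p without each. Of these RNAs *APCDD1L-AS1* passed the filter only through its highest group, so its values are a description. *APCDD1L-AS1* (2.47, adjusted p = 0.027) was lost without TSZ+Nec-1s a (0.058), TSZ+Nec-1s b (0.087) or DMSO a (0.11), *DGUOK-AS1* (-1.67, adjusted p = 0.022) without TSZ+Nec-1s a (0.053), TSZ+Nec-1s b (0.089), TSZ+Nec-1s c (0.081) or DMSO a (0.067), *ZNF436-AS1* (-1.14, adjusted p = 0.016) without TSZ+Nec-1s a (0.066), TSZ+Nec-1s b (0.077), DMSO a (0.06) or DMSO c (0.0508), *MNX1-AS1* (-1.05, adjusted p = 0.014) without TSZ+Nec-1s b (0.058) or TSZ+Nec-1s c (0.064) and *CAPN10-AS1* (-0.86, adjusted p = 0.013) without TSZ+Nec-1s a (0.078). *LOXL1-AS1* (-0.91, adjusted p = 0.0488), opposite the lysyl oxidase gene *LOXL1* at -0.99 (adjusted p = 0.0036), kept its call only without TSZ a or DMSO c among the 12 fits that left out 1 library, and the adjusted p was up to 0.18 in the others. Of the counts, 3 were higher and 4 lower without TSZ+Nec-1s a, 2 and 4 without TSZ+Nec-1s b, 3 and 7 without TSZ+Nec-1s c, 3 and 8 without DMSO a, and 11 and 36 without DMSO b. Without the 3 libraries that stood apart 20 were higher and 51 lower, beside 26.9% and 23.1% of all genes.

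Between TSZ+Nec-1s and TNFα 1 RNA differed, beside 1.06% higher and 0.24% lower among all genes (0.462% and 0.0257% past 2-fold, with no RNA), and no RNA was higher by limma, while 37 had an unadjusted p under 0.05 in either direction. *FAM83H-AS1* had 574, 527 and 603 normalized reads in TSZ+Nec-1s cells, against 829, 840.1 and 875 in TNFα cells, at -0.58 ± 0.13 (adjusted p = 0.045). The groups did not overlap, but the call was lost without TSZ+Nec-1s a (0.18), TSZ+Nec-1s b (0.21), TSZ+Nec-1s c (0.13), TSZ b (0.059), TSZ c (0.066), TNFα a (0.13), TNFα b (0.16), TNFα c (0.19) or DMSO a (0.069). Without the 3 libraries that stood apart 14 RNAs were higher and 31 lower, beside 22.1% and 19.1% of all genes. Without DMSO b 2 were higher and 8 lower.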

How the data were processed

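RNA of 12 HT-29 libraries (4 groups of 3, treated for 8 h) was measured by polyA RNA-seq. Per the paper's methods and the labels' processing notes, the authors aligned reads to hg38 with STAR, counted them per gene with HTSeq in the intersection-strict mode without strand, and scaled them with DESeq. The authors deposited 6 tables, 1 for each pair of groups, each with 2 columns of group mean signal (normalized reads); the remaining columns hold their own fold changes and p-values, and these were not used. The sources differ on the RNA extraction and library kits. Single libraries were rebuilt by solving each group mean as a sum of 3 whole read numbers in the steps of 3 size factors. This solved 15723 of 15733 genes with reads in TSZ+Nec-1s, 15754 of 15798 in TSZ, 15594 of 15664 in TNFα and 15842 of 15850 in DMSO cells, and the method was tested on simulated data.

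The 12 libraries were fitted together with limma 3.58.1 in R 4.3.3, with precision weights and the size factors recovered from the tables, over the 11680 solved genes whose 4 group means averaged 10 or more (Benjamini-Hochberg adjustment over all 11680). A call is an adjusted p under 0.05. Adjusted p-values in the text are those of limma. Alternatives were other scalings, filters, pseudocounts of 1 and 5 on the log2 scale, a fit of only the groups compared, removal of a GC trend, a 2-fold rule, leaving out each library, and leaving out DMSO b, TNFα a and TSZ a together, which was chosen after the data were seen. Genes named are *NEAT1*, *MALAT1*, *GAS5* and SNHG members, the 10 called members with the largest change in each comparison, the 5 with the highest level, the 3 on each side of the limit, their named or nearest coding genes, and the 3 called genes with the largest change of each list, from which the text takes those it describes. The members and lists were chosen with earlier results of these data known. Counting intervals cover counting error only. Annotation was GENCODE v44, which matched 204 members by symbol and 56 by an older symbol, and promoters were RefSeq GRCh38.p14. Some genes that the rule names are not reported here.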

Additional observations from a re-analysis of the deposited data

How the results depend on the processing

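No paired analysis was possible because the deposited columns are group means and the rebuilt libraries carry no replicate number. Scaled to total reads, 29 RNAs were higher and 129 lower for TSZ over DMSO, beside 13.99% and 48.6% of all genes. Between TSZ and TNFα these were 26 and 104, beside 12.6% and 42.4%. For TSZ+Nec-1s over TSZ they were 87 and 29, beside 42.3% and 11.6%. Lower were 30 for TSZ+Nec-1s over DMSO (10.8% of all genes), 2 for TSZ+Nec-1s over TNFα (0.428%) and 2 for TNFα over DMSO (1.92%). Scaled to the upper quartile, 21 were lower for TSZ+Nec-1s over DMSO, beside 7.67% of all genes. With a GC trend removed, 6 were higher and 8 lower for TNFα over DMSO, beside 7.92% and 5.01% of all genes. For TSZ+Nec-1s over DMSO these were 10 and 39, beside 15.04% and 12.1%. For TSZ+Nec-1s over TNFα 7 were lower, beside 1.27%. With only the 2 groups compared in the fit, 2 were higher and 7 lower for TSZ+Nec-1s over DMSO, and 9 and 22 for TSZ+Nec-1s over TNFα. Without DMSO b, TNFα a and TSZ a, 3 were higher and 4 lower for TNFα over DMSO, beside 7.02% and 4.04% of all genes. For TSZ+Nec-1s over DMSO these were 20 and 51, beside 26.9% and 23.1%. For TSZ+Nec-1s over TNFα they were 14 and 31, beside 22.1% and 19.1%. The single lower RNA for TSZ+Nec-1s over TNFα was not called, a count of 0, with no filter or with a pseudocount of 1 or 5. At least a 2-fold change left 0 higher for TNFα over DMSO (1.4% of all genes) and 27 higher for TSZ over DMSO (11.2%). Between TSZ and TNFα 22 were higher and 30 lower, beside 8.96% and 5.89%. For TSZ+Nec-1s over TSZ these were 19 and 27, beside 5.33% and 7.5%. For TSZ+Nec-1s over DMSO they were 2 and 4, beside 3.02% and 1.12%. For TSZ+Nec-1s over TNFα 0 were lower, beside 0.0257%. Leaving out 1 library gave 1 to 2 higher and 0 lower for TNFα over DMSO, 43 to 51 higher and 55 to 68 lower for TSZ over DMSO, 34 to 51 and 49 to 64 between TSZ and TNFα, 33 to 50 and 40 to 59 for TSZ+Nec-1s over TSZ, 2 to 11 and 4 to 36 for TSZ+Nec-1s over DMSO, and 0 to 2 and 0 to 8 for TSZ+Nec-1s over TNFα. For fits of only the 2 groups, with other filters or pseudocounts, or without 1 library, shares of all genes are not given, here or above. Shifts of the set in those fits are therefore not set apart from shifts of all genes. The cause of these shifts was not tested. Of 108 calls of named members, 82 were kept in every fit without 1 library, 26 were lost in at least 1, and no sign changed in any alternative.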
